A study of Mus musculus with 6 samples.

Results

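The genes described here make, sense and move sterols and fatty acids in the cell. They are 38 named genes of the pathway of the sterol regulatory element binding proteins (SREBPs), picked by name out of the 57010 gene identifiers of the count table, and all 38 were found. By role, they comprise 7 enzymes of the mevalonate pathway, 11 enzymes from squalene to cholesterol, 5 genes for the SREBPs and the proteins that hold or carry them, 8 fatty acid enzymes, 2 genes for sterol movement inside the cell and 5 genes of the liver X receptors (LXRs) and of sterol efflux. The rule that lists them names genes and uses no measured value, but the list was drawn up with earlier results of these data known. All 38 also passed the filter on low counts that left 16093 tested genes.

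Polyadenylated RNA was sequenced from mouse fibroblasts, with 2 libraries from cells on a 1 kPa polyacrylamide gel, 2 from cells on a 20 kPa polyacrylamide gel and 2 from cells on glass, the study's control. Each sample held 500000 dermal fibroblasts of the ear kept for 3 days on its substrate. Gel and glass differ in material as well as in stiffness, and a comparison with glass cannot tell the 2 apart. The study asks how matrix stiffness bears on the epigenetic state of fibroblasts during conversion to neurons, but the labels of these 6 libraries name no reprogramming factor. The labels give no strain, genotype, age, sex, medium or serum. They also leave unsaid whether replicate libraries are separate animals or cultures, so that a p-value here weighs a difference against the spread of these libraries alone, and that spread may be technical.

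The fibroblast label was checked against 9 markers, whose summed level was 28330 to 29460 CPM on 1 kPa, 30880 to 32140 CPM on 20 kPa and 19590 to 20970 CPM on glass. CPM are a gene's counts after every library is brought to the same effective size. The sum hides markers that differed more. Dcn held 3766 and 3318 CPM on 1 kPa, 2960 and 2866 CPM on 20 kPa, and 144 and 171 CPM on glass. Lum held 981.5 and 894 CPM on 1 kPa, 909 and 858 CPM on 20 kPa, and 40.5 and 51.1 CPM on glass. Vim went the other way, with 2131 and 2250 CPM on 1 kPa, 2762 and 2681 CPM on 20 kPa, and 4294 and 4090 CPM on glass. Dcn and Lum were lower in both glass libraries than in any gel library and Vim was higher, and the part of these differences in the results below was not tested. Library totals ran from 17669006 to 21350111 counts. Counts of other cell types were low: 9 macrophage markers summed to 12.9 to 16.2 CPM in the gel libraries and 10.8 to 13.4 CPM on glass, and 5 markers of sebocytes, the lipid-making cells of skin glands, summed to 2.14 to 3.56 CPM on the gels and 1.86 to 2.17 CPM on glass, with Awat1 and Elovl3 at 0 in every library. Keratinocyte markers (6) summed to 3.76 to 4.80 CPM on the gels and 7.72 to 10.1 CPM on glass. By a chi-square of replicate counts averaged over genes, the 2 glass libraries differed more, at 40.67 against 10.83 on 1 kPa and 3.63 on 20 kPa. Their correlation of log2 CPM was near that of the gels, at 0.9917 against 0.9925 on either gel. A single identifier with many counts can weigh on the chi-square average. Such a one, ENSMUSG00000119584.1, held 5.1% of the counts in glass replicate 2 against 0.947% to 2.9% elsewhere.

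SREBPs are transcription factors made as precursors in the membrane of the endoplasmic reticulum. Scap carries them to the Golgi for cleavage when membrane sterol is low, and the Insig proteins hold Scap back when it is high. SREBP-2, from Srebf2, acts mainly on cholesterol genes and SREBP-1, from Srebf1, mainly on fatty acid genes. Because cleavage sets their activity, the amount of either mRNA does not report how much factor is in the nucleus. For cholesterol, LXRs work in the other direction: bound by oxysterols, they turn on sterol export. Much of the feedback was worked out in cultured human skin fibroblasts.

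SREBPs bind promoters at a sterol regulatory element, usually beside sites for the factors NF-Y and Sp1, so 6 promoters are shown for the letters of these elements. They were picked from the sterol, regulator and fatty acid roles and are the 180 bases before the annotated start, from RefSeq on build GRCm38.p6, written 5′ to 3′ along the gene. Capitals mark CCAAT, the core of the NF-Y motif, on either strand (ATTGG on the strand printed), and TCACNNCA, a loosened form of the sterol regulatory element, also searched on both strands. All 6 hold CCAAT, whereas 21 of 29 members with a sequence (72.4%) held it over a longer window. The 6 thus do not stand for all members.
Hmgcs1, chr13:119690171-119690350, plus strand: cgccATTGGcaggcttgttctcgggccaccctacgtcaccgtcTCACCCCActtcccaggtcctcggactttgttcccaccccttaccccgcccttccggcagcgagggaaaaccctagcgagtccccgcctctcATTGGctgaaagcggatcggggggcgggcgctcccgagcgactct
Idi1, chr13:8885426-8885605, plus strand: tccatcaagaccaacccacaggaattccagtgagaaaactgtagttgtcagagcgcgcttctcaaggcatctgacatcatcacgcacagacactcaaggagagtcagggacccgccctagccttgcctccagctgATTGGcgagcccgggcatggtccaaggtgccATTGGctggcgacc
Cyp51, chr5:4104698-4104877, minus strand: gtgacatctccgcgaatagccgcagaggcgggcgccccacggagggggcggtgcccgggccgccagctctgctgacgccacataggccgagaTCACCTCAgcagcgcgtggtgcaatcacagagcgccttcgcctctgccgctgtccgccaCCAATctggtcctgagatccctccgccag
Msmo1, chr8:64733579-64733758, minus strand: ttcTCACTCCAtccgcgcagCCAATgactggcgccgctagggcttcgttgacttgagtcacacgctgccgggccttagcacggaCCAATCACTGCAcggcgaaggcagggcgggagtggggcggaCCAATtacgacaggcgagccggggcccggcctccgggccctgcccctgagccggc
Srebf2, chr15:82147089-82147268, plus strand: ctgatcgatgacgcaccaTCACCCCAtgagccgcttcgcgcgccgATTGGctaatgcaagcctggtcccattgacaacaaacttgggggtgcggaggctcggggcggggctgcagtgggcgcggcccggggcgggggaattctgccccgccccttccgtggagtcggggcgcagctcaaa
Fasn, chr11:120824548-120824727, minus strand: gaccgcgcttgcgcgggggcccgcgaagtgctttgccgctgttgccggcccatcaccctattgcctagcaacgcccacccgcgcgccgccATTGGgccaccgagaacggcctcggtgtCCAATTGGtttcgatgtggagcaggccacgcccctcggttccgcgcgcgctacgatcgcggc

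The Hmgcs1 promoter held TCACCCCA between a pair of ATTGG matches, and it was the only member promoter with the stricter form TCACNCCAC, in 1 of 29 members with a sequence (3.4%), against 1.42% of 11169 tested genes with one. The promoters of Idi1 and Fasn, by contrast, held the NF-Y letters without the loosened element. In Msmo1 a CCAAT and a TCACTGCA shared bases (CCAATCACTGCA), and in Fasn the letters CCAATTGG carried overlapping matches on opposite strands.

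Over windows of 250 bases before to 50 bases after the start, CCAAT stood in 21 of 29 members (72.4%), against 42.61% of tested genes and 37.41% of all 32851 windows. It was found in 14 of the 15 sterol enzymes with a sequence, every one but Acat2, in 4 of 5 SREBP regulators, in 2 of 5 fatty acid enzymes and in 1 of 4 LXR genes. TCACNNCA, a form chosen after the stricter one had been counted and which contains every match to it, stood in 10 of 29 members (34.5%), against 13.57% of tested genes and 13.84% of windows. Of those 10, 8 were sterol enzymes and the other two were Srebf2 and Insig2. GGGCGG, the Sp1 motif, stood in 23 of 29 members (79.3%), against 67.09% of tested genes, and the LXR element, written as TGACCT, any 4 bases and TGACC, in 0 of 29, against 0.01% of tested genes. That form stood in only 1 of 11169 tested genes, so its absence from the members says nothing about LXR sites in them. These shares describe letters in a window, not binding. Windows were not given for Fdps, Fdft1, Sqle, Scd1, Scd2, Fads1, Stard4, Npc1 and Abcg1.

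**Figure D1:**
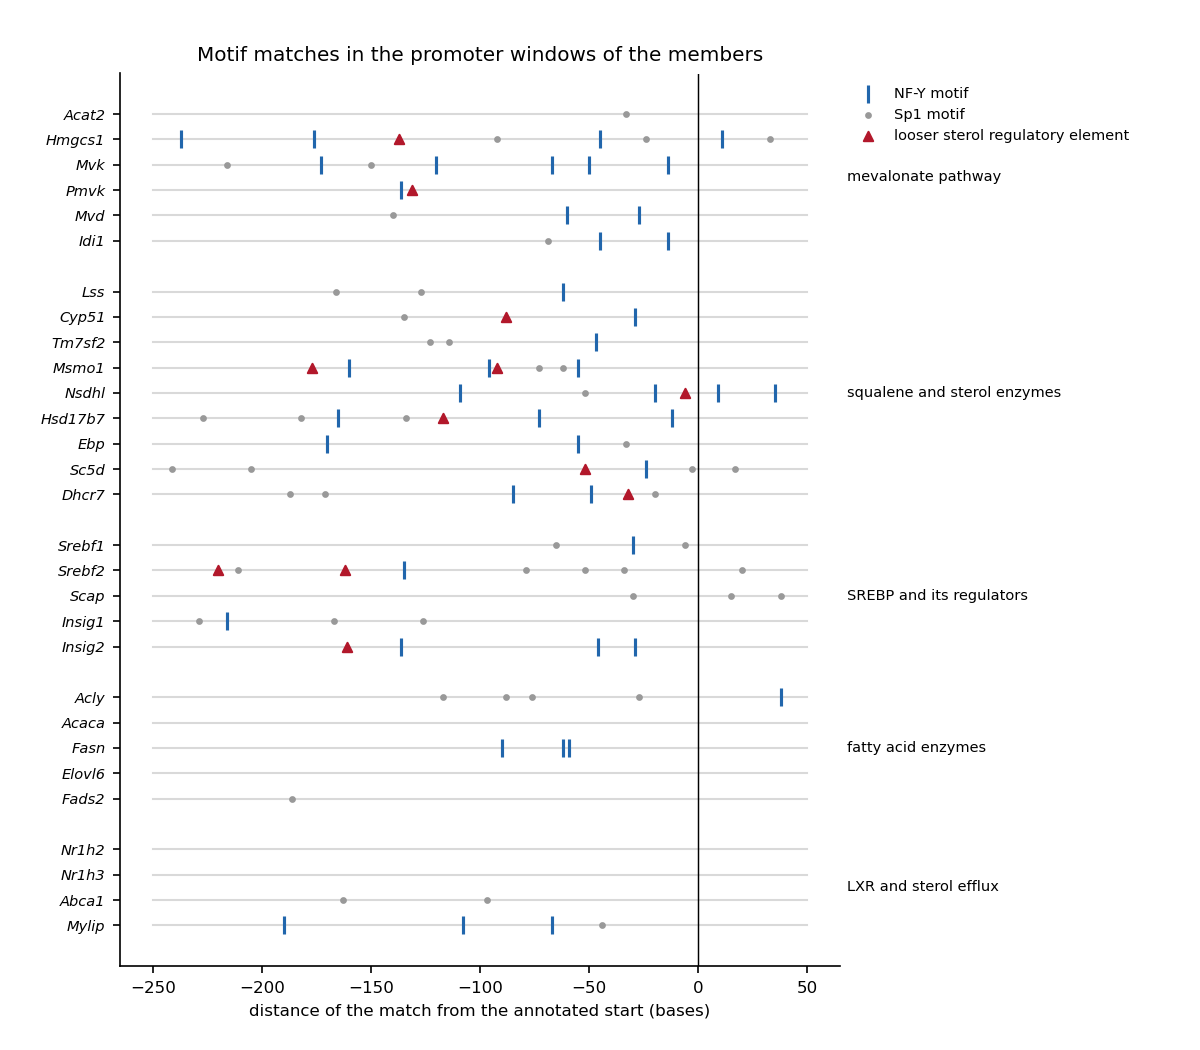
Matches to CCAAT (NF-Y), GGGCGG (Sp1) and TCACNNCA (looser sterol regulatory element) on either strand, by distance from the annotated start in bases, for the 29 members with a RefSeq window; where a gene has several windows, the one with most matches is drawn. The blue bars run through the sterol enzymes, in 14 of 15, and are sparse among the fatty acid and LXR genes.

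On both gels the enzymes that build cholesterol were lower than on glass, those that build fatty acids were lower too, by less, and the genes of sterol export were higher or level. On 1 kPa, 29 of the 38 members fell against glass (76.3%), with a background of 22.0% of all tested genes, and 5 rose (13.2%), with a background of 23.0%. On 20 kPa, 30 members fell (78.9%, background 19.6%) and 4 rose (10.5%, background 22.3%). Called here means an adjusted p under 0.05 in edgeR's quasi-likelihood test with Benjamini-Hochberg adjustment over all 16093 genes, and every adjusted p of a single gene below comes from that test. Since the members were chosen with earlier results known, these shares describe them and are no independent test. The 2 comparisons share the glass libraries, so they are given side by side and not as independent results.

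Many of the falls were also large. At least 2-fold falls were called in 21 members on 1 kPa (background 3.01%) and in 18 on 20 kPa (background 2.99%). Rises of that size were called in 1 member on 1 kPa (background 9.63%) and in no member on 20 kPa (background 8.51%), where Abcg1 came nearest, at 0.93 on the log2 scale. The members' median log2 fold change was -1.15 on 1 kPa against glass, beside 0.002 for all tested genes, and -0.92 on 20 kPa against glass, beside 0.015. Libraries of the 2 groups did not overlap in 30 lower and 7 higher members on 1 kPa (backgrounds 34.8% and 36.2%) and in 31 lower and 5 higher members on 20 kPa (backgrounds 32.0% and 35.5%). Counts by role below stand against these backgrounds over all tested genes. In bulk RNA, fewer cells that express a gene and less of its RNA per cell cannot be told apart.

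**Figure D2:**
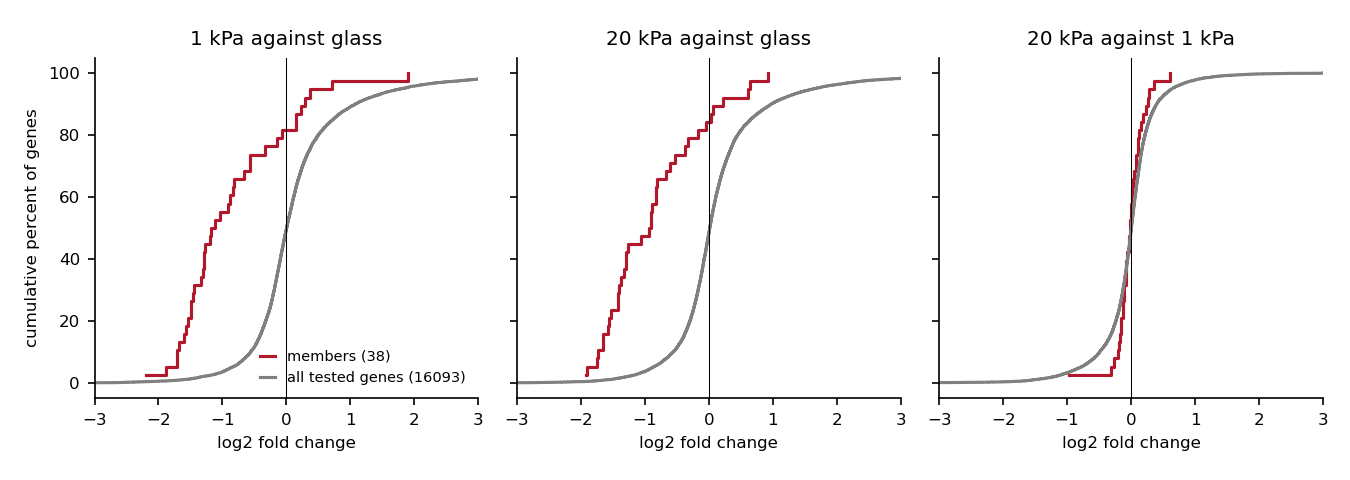
Cumulative percent of genes against log2 fold change, for the 38 members (red) and all 16093 tested genes (grey), in each of the 3 comparisons. The members' curve lies left of the grey curve in both comparisons with glass, with medians of -1.15 and -0.92, and crosses it near 0 between the gels, with a median of -0.017.

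The mevalonate pathway turns acetyl-CoA into the isoprenoid units of cholesterol. All 7 of its members fell at least 2-fold against glass on either gel, with a median log2 fold change of -1.67 on 1 kPa and -1.73 on 20 kPa. Their summed level was 220 and 214 CPM on 1 kPa, 217 and 219 CPM on 20 kPa, and 694 and 686 CPM on glass, so that the gels kept 31.4% and 31.6% of the glass level. None of the 7 was called between the gels.

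Idi1 (ENSMUSG00000058258.16, chr13:8885501-8892451, plus strand; gene positions are those of GENCODE M21 on GRCm38), the isomerase that makes the reactive isoprenoid unit, had the largest change of all members in both comparisons with glass. It was measured at 11.4 and 11 CPM on 1 kPa, 14.4 and 12.8 CPM on 20 kPa, and 45.2 and 58.1 CPM on glass. Every gel library lay far below both glass libraries, which themselves differed, and both 20 kPa libraries stood a little above the 1 kPa ones. Its log2 fold change against glass was -2.19 (SE 0.11, adjusted p = 2.39e-16) on 1 kPa, rank 64 of 16093 from the lowest, and -1.92 (SE 0.11, adjusted p = 2.84e-15) on 20 kPa. Idi1 shares 25.3% of its exonic 50-base stretches with other genes, most with Gm13502, which held 0 to 6 counts per library.

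Fdps (ENSMUSG00000059743.13, chr3:89093588-89101959, minus strand), which joins these units into farnesyl diphosphate at the branch to sterols, ran at 62.9 and 61.6 CPM on 1 kPa, 61.3 and 61.6 CPM on 20 kPa, and 235 and 222 CPM on glass. The 4 gel libraries lay within a narrow band and did not overlap glass. Fdps fell by 3.67-fold on 1 kPa, a log2 fold change of -1.88 (SE 0.062, adjusted p = 6.23e-21), and by 3.72-fold on 20 kPa, -1.90 (SE 0.061, adjusted p = 4.91e-21). Of its 50-base stretches 26.2% are shared, most with Gm43738 on the same strand, so part of its reads may not have been assigned.

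Hmgcs1 (ENSMUSG00000093930.3, chr13:119690379-119708260, plus strand), the cytosolic synthase that commits acetoacetyl-CoA to the pathway and whose promoter opens the sequences above, had 55.4 and 54.8 CPM on 1 kPa, 61.8 and 60.4 CPM on 20 kPa, and 179 and 181 CPM on glass. Glass libraries were about level with each other and no gel library came near them. Against glass it changed by -1.71 (SE 0.062, adjusted p = 7.61e-20) on the log2 scale on 1 kPa and -1.56 (SE 0.061, adjusted p = 5.75e-19) on 20 kPa. Between gels it was 0.15 and was not called (adjusted p = 0.114).

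The remaining mevalonate enzymes moved alike. Mvk, the first kinase of the pathway, gave 23.6 and 26.1 CPM on 1 kPa, 23.4 and 26.9 CPM on 20 kPa, and 61.4 and 61.7 CPM on glass, and Pmvk, the second, 12.4 and 13.3 CPM on 1 kPa, 9.94 and 12.7 CPM on 20 kPa, and 39.9 and 36.3 CPM on glass. Mvd, the decarboxylase that follows them, gave 17.1 and 14.2 CPM on 1 kPa, 14.6 and 15.6 CPM on 20 kPa, and 53.4 and 46.4 CPM on glass. In each of these the gel libraries of both kinds overlapped one another and none reached glass. Their log2 fold changes were -1.31, -1.57 and -1.67 on 1 kPa, and -1.29, -1.75 and -1.73 on 20 kPa.

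Acat2, the cytosolic thiolase of the first step, was at 36.8 and 32.7 CPM on 1 kPa, 31.2 and 29.5 CPM on 20 kPa, and 80.3 and 79.6 CPM on glass, with all gel libraries clear of glass. Its log2 fold change was -1.20 (SE 0.076, adjusted p = 4.72e-14) on 1 kPa and -1.40 (SE 0.077, adjusted p = 1.89e-15) on 20 kPa. Acat2 shares 39.1% of its 50-base stretches with other genes, nearly all with its close copy Acat3, so reads could be split between them. Acat3, picked after its counts were seen, held 317 and 264 counts on 1 kPa, 193 and 181 on 20 kPa, and 55 and 51 on glass, the opposite direction to Acat2.

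From squalene on, the sterol enzymes fold and trim the ring. All 11 fell on either gel against glass, 10 of them at least 2-fold on 1 kPa and 8 on 20 kPa, with medians of -1.28 and -1.30. They summed to 405 and 396 CPM on 1 kPa, 429 and 409 CPM on 20 kPa, and 1019 and 1027 CPM on glass. Together with the mevalonate enzymes, the 18 sterol enzymes summed to 617 ± 10.5 CPM on 1 kPa, 637 ± 11.6 CPM on 20 kPa and 1713 ± 0.59 CPM on glass (SD, n = 2 each), 36.0% and 37.2% of glass.

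Fdft1, squalene synthase, which makes the first committed sterol precursor, was at 37.1 and 41.1 CPM on 1 kPa, 44.8 and 39.7 CPM on 20 kPa, and 109 and 103 CPM on glass. Sqle, squalene epoxidase, a slow step of the pathway, was at 54.7 and 53.7 CPM on 1 kPa, 51.6 and 45.9 CPM on 20 kPa, and 133 and 129 CPM on glass. Lss, which closes the ring to lanosterol, was at 36.5 and 41.2 CPM on 1 kPa, 37.3 and 34.2 CPM on 20 kPa, and 112 and 113 CPM on glass. In all 3 the glass libraries were well above every gel library and differed little between themselves. Fdft1 shares 26.5% of its 50-base stretches with other genes, chiefly with Ctsb on the opposite strand, a gene of 12479 to 21630 counts per library, so its value is uncertain where strand was not used in counting. The log2 fold changes on 1 kPa were -1.44 for Fdft1, -1.27 for Sqle and -1.53 for Lss, and on 20 kPa -1.33, -1.42 and -1.65 in the same order.

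Cyp51 (ENSMUSG00000001467.6, chr5:4081145-4104746, minus strand), the demethylase of lanosterol, was the most abundant of the 11 per exonic length, at 16.1 ± 1.51 RPKM on 1 kPa, 19.1 ± 0.0614 RPKM on 20 kPa and 45.5 ± 1.68 RPKM on glass (SD, n = 2 each; CPM per kilobase). Its libraries held 75.9 and 66.5 CPM on 1 kPa, 84.4 and 84 CPM on 20 kPa, and 196 and 206 CPM on glass. It was the only sterol enzyme called between the gels: 20 kPa libraries lay above both 1 kPa libraries, without overlap. Cyp51 had a log2 fold change of -1.50 (SE 0.065, adjusted p = 6.66e-18) on 1 kPa against glass, -1.26 (SE 0.064, adjusted p = 3.64e-16) on 20 kPa against glass and 0.24 (SE 0.067, adjusted p = 0.0106) on 20 kPa against 1 kPa. That last call was lost without 1 kPa replicate 2 (adjusted p = 0.367), without 20 kPa replicate 1 (0.0874) and without 20 kPa replicate 2 (0.0743).

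Msmo1, the oxidase that takes off the next methyl groups and whose promoter carries 3 CCAAT letters and a pair of TCACNNCA letters, was at 45.8 and 38.7 CPM on 1 kPa, 48.8 and 47.3 CPM on 20 kPa, and 130.1 and 149 CPM on glass. It fell more than any other enzyme of this block on 1 kPa, and its gel libraries did not overlap glass. Its log2 fold change was -1.72 (SE 0.077, adjusted p = 1.26e-17) on 1 kPa and -1.53 (SE 0.076, adjusted p = 1.53e-16) on 20 kPa.

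At the other end, Ebp, a sterol isomerase, changed least, with 26.6 and 27.1 CPM on 1 kPa, 27.5 and 27.6 CPM on 20 kPa, and 42.3 and 37.3 CPM on glass. All 4 gel libraries were below glass, but by little. The log2 fold change of Ebp was -0.57 (SE 0.086, adjusted p = 2.25e-06) on 1 kPa and -0.53 (SE 0.085, adjusted p = 5.96e-06) on 20 kPa. The last enzymes of the route, Sc5d, a desaturase, and Dhcr7, the final reductase of its branch, fell by 2.16-fold and 2.06-fold on 1 kPa and by 2.09-fold and 1.9-fold on 20 kPa. The other members of the block, Tm7sf2, Nsdhl and Hsd17b7, enzymes that reduce or oxidise the ring, had log2 fold changes of -1.18, -1.46 and -1.28 on 1 kPa and -0.82, -1.58 and -1.30 on 20 kPa.

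**Figure D3:**
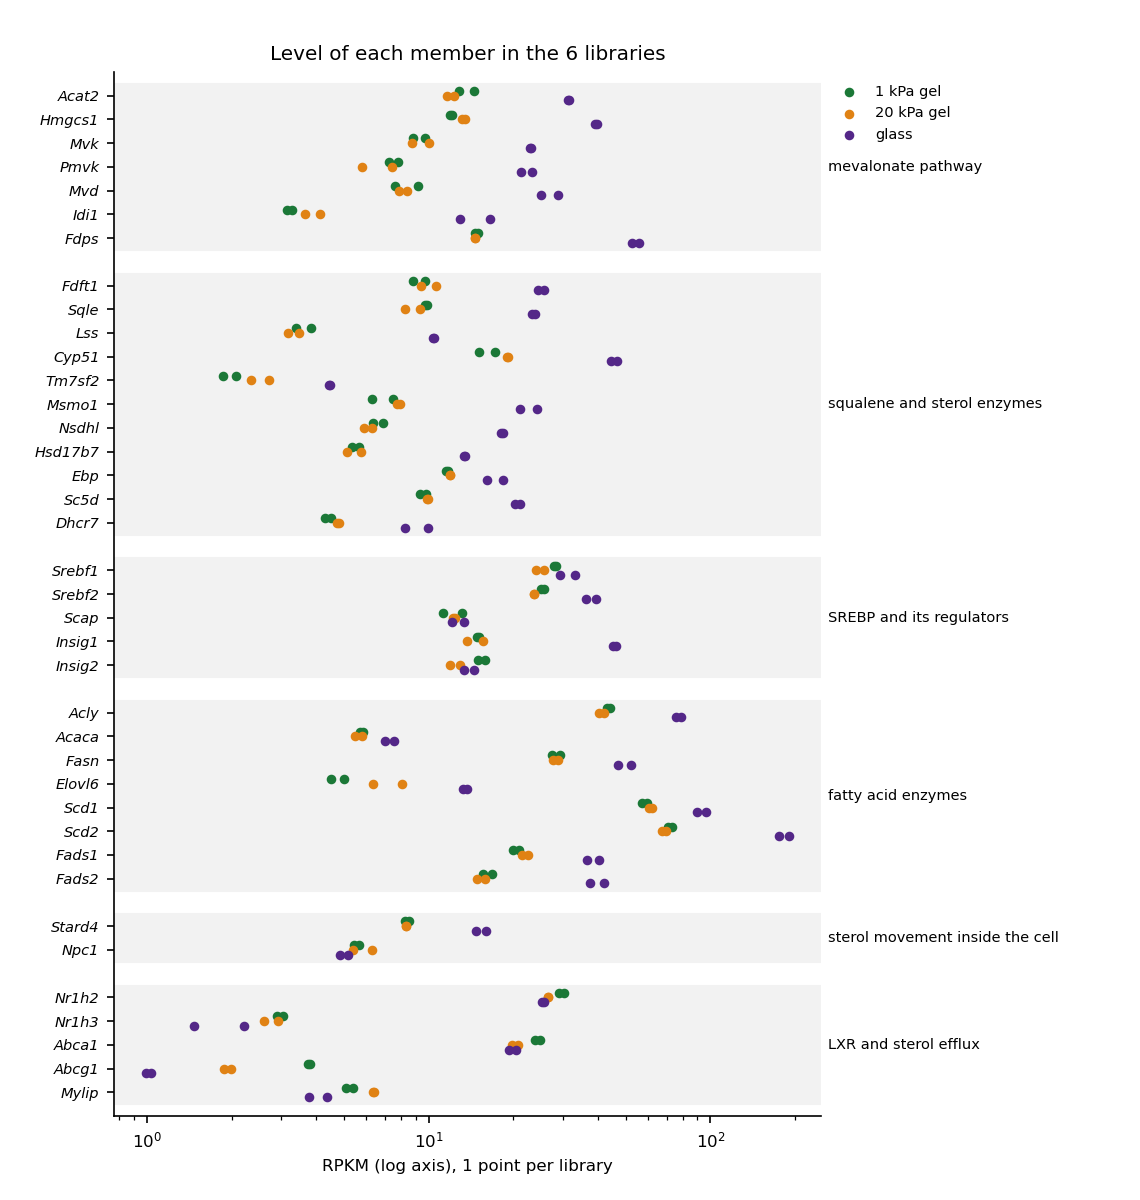
Level of each of the 38 members in the 6 libraries, in RPKM (CPM per kilobase of exonic length) on a log axis, by role, with 1 point per library. Purple glass points stand right of the gel points through the mevalonate, sterol and fatty acid enzymes, where the summed CPM on 1 kPa were 31.4%, 39.1% and 51.2% of glass, and left of them for Abcg1, Mylip and Nr1h3.

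Cell division markers moved with these falls. All 8 of 8 proliferation markers fell against glass on 1 kPa (background 22.0%) and all 8 of 8 on 20 kPa (background 19.6%), with medians of -0.67 and -0.90. They summed to 583 and 601 CPM on 1 kPa, 529.7 and 501 CPM on 20 kPa, and 937 and 972 CPM on glass, or 62.0% and 54.0% of glass. The 18 sterol enzymes stood at 36.0% and 37.2% of glass, and the fatty acid enzymes at 51.2% on both gels. SREBP genes and their regulators summed to 72.8% and 67.1%. Genes of sterol movement summed to 76.8% and 79.0%, and LXR and efflux genes to 127.7% and 107.9%. The part of proliferation in the falls was not tested.

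Of the SREBP genes and their regulators, the transcripts did not fall together. Srebf2, the cholesterol-side factor, whose own promoter carries the loosened element, was at 185 and 180.3 CPM on 1 kPa, 170.5 and 169.7 CPM on 20 kPa, and 282 and 259.9 CPM on glass, with the gel libraries clear of glass. Its log2 fold change was -0.57 (SE 0.058, adjusted p = 1.64e-09) on 1 kPa and -0.67 (SE 0.058, adjusted p = 5.84e-11) on 20 kPa. Srebf1, the fatty-acid-side factor, was at 158 and 159.6 CPM on 1 kPa, 145 and 136 CPM on 20 kPa, and 187 and 164 CPM on glass. Its 20 kPa libraries were the lowest and the 1 kPa ones lay just under glass. It fell on 20 kPa, -0.32 (SE 0.063, adjusted p = 9.92e-05), and missed the threshold on 1 kPa, -0.15 (SE 0.063, adjusted p = 0.055), where it was called lower without glass replicate 2 (adjusted p = 0.000956).

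Insig1, which holds Scap in the endoplasmic reticulum and is itself a target of SREBPs, was at 46 and 46.9 CPM on 1 kPa, 42.2 and 48.2 CPM on 20 kPa, and 143 and 139.7 CPM on glass. Its related gene Insig2, which does the same but is less tied to sterols, was at 52.2 and 55.2 CPM on 1 kPa, 41.4 and 44.8 CPM on 20 kPa, and 46.3 and 50.5 CPM on glass. Insig1 stood far below glass in all gel libraries, while Insig2 was highest on 1 kPa, lowest on 20 kPa and between them on glass. Insig1 had a log2 fold change of -1.61 (SE 0.069, adjusted p = 4.33e-18) on 1 kPa and -1.65 (SE 0.069, adjusted p = 2.65e-18) on 20 kPa. Insig2 was not called on 1 kPa, 0.15 (SE 0.076, adjusted p = 0.106), nor on 20 kPa, -0.16 (SE 0.077, adjusted p = 0.0883), but was lower on 20 kPa than on 1 kPa, -0.32 (SE 0.076, adjusted p = 0.00298). Without glass replicate 2 it was called higher on 1 kPa (adjusted p = 0.0421), and without glass replicate 1 lower on 20 kPa (0.0351).

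Per exonic length, the ratio of Insig1 to Insig2 was 0.99 and 0.953 on 1 kPa, 1.15 and 1.21 on 20 kPa, and 3.47 and 3.11 on glass. On glass, Insig1 was thus the more abundant gene by length and on the gels the pair stood near 1. The ratio of Srebf1 to Srebf2 per length was 1.09 and 1.13 on 1 kPa, 1.09 and 1.02 on 20 kPa, and 0.844 and 0.807 on glass. Scap, the carrier, was at 83.8 and 97.5 CPM on 1 kPa, 91.2 and 92.5 CPM on 20 kPa, and 99.5 and 90 CPM on glass, and its libraries overlapped in every comparison. It was not called, at -0.068 (SE 0.07, adjusted p = 0.461) on 1 kPa and -0.047 (SE 0.07, adjusted p = 0.635) on 20 kPa against glass. The call of Insig2 between gels was lost without 1 kPa replicate 2 (adjusted p = 0.0859) and without 20 kPa replicate 1 (0.0931).

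The fatty acid enzymes build, lengthen and desaturate acyl chains. All 8 fell on either gel against glass, with a median of -0.87 on 1 kPa and -0.86 on 20 kPa, and they summed to 1477 and 1523 CPM on 1 kPa, 1534 and 1466 CPM on 20 kPa, and 3043 and 2816 CPM on glass. The gels thus both kept 51.2% of glass.

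Acly, which frees cytosolic acetyl-CoA from citrate, was at 233 and 226 CPM on 1 kPa, 222 and 213 CPM on 20 kPa, and 417 and 400.1 CPM on glass. Fasn, the synthase, was at 300.5 and 320 CPM on 1 kPa, 316 and 302 CPM on 20 kPa, and 573 and 516 CPM on glass, and Acaca, the carboxylase that feeds it, at 99.6 and 97.2 CPM on 1 kPa, 98.8 and 93.6 CPM on 20 kPa, and 128 and 119.6 CPM on glass. Acly and Fasn fell by 1.78-fold and 1.76-fold on 1 kPa and by 1.88-fold and 1.76-fold on 20 kPa, whereas Acaca fell less, at -0.34 and -0.37 on the log2 scale, with gel and glass libraries still apart. Acaca shares 30.4% of its 50-base stretches with other genes, mostly with Gm5182, which held 13 to 20 counts per library.

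The desaturases did not fall alike. Scd2 (ENSMUSG00000025203.7, chr19:44293674-44306864, plus strand), a stearoyl-CoA desaturase, was the most abundant member per length, at 72 ± 1.57 RPKM on 1 kPa, 68.5 ± 1.76 RPKM on 20 kPa and 182 ± 10.1 RPKM on glass (SD, n = 2 each). Its libraries held 388 and 399.8 CPM on 1 kPa, 381 and 368 CPM on 20 kPa, and 1036 and 958 CPM on glass. Scd1, its close relative, held 279.8 and 291 CPM on 1 kPa, 303 and 297 CPM on 20 kPa, and 470.1 and 438 CPM on glass, and both were clear of glass on the gels. Scd2 had a log2 fold change of -1.34 (SE 0.059) on 1 kPa and -1.41 (SE 0.059) on 20 kPa, and Scd1 -0.67 (SE 0.057) and -0.60 (SE 0.057). The ratio of Scd1 to Scd2 per length was 0.806 and 0.813 on 1 kPa, 0.888 and 0.902 on 20 kPa, and 0.507 and 0.51 on glass. Of their 50-base stretches, 4.6% in Scd1 and 4.0% in Scd2 also stand in other genes, each other included.

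Fads1 and Fads2, desaturases of polyunsaturated chains, fell by 1.88-fold and 2.45-fold on 1 kPa and by 1.74-fold and 2.58-fold on 20 kPa. Elovl6, which lengthens saturated chains, was at 28.9 and 32.3 CPM on 1 kPa, 51.9 and 41 CPM on 20 kPa, and 87.8 and 85 CPM on glass. Its 3 groups did not overlap and lay in the order 1 kPa, 20 kPa, glass. The log2 fold change was -1.50 (SE 0.088, adjusted p = 7.13e-15) on 1 kPa, -0.90 (SE 0.083, adjusted p = 2.95e-10) on 20 kPa and 0.60 (SE 0.091, adjusted p = 8.39e-06) on 20 kPa against 1 kPa, the largest rise of any member between the gels.

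**Figure D4:**
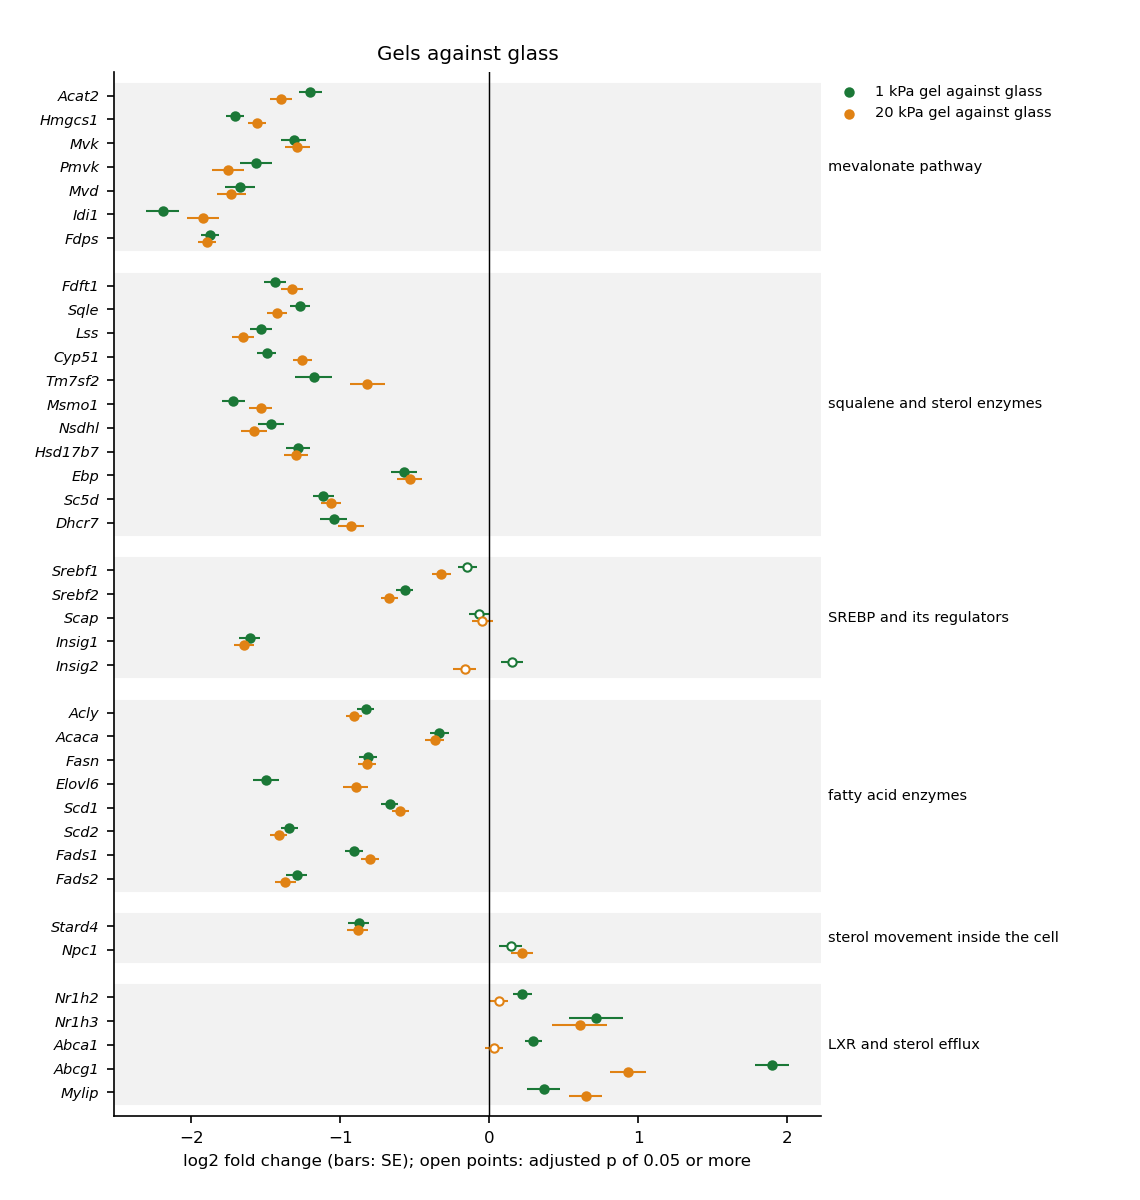
Log2 fold change of each member against glass on 1 kPa (green) and 20 kPa (orange), with SE bars, in the order of the roles. Open points did not pass the adjusted p of 0.05. Enzymes lie left of 0 and Abcg1, at 1.90 on 1 kPa, is the farthest right.

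Stard4, which carries cholesterol between membranes in the cytosol, was at 46 and 47.6 CPM on 1 kPa, 46.4 and 46.6 CPM on 20 kPa, and 82.3 and 89.6 CPM on glass, with the gels level and glass above. It fell on 1 kPa, -0.88 (SE 0.07, adjusted p = 1.01e-11), and on 20 kPa, -0.88 (SE 0.07, adjusted p = 8.67e-12). Npc1, the lysosomal exporter of cholesterol, was at 64 and 61.6 CPM on 1 kPa, 71.5 and 61.1 CPM on 20 kPa, and 58.7 and 54.9 CPM on glass. Its gel libraries stood above glass by little, and 1 of the 20 kPa libraries stood above all others. It was not called on 1 kPa, 0.14 (SE 0.076, adjusted p = 0.128), and rose on 20 kPa, 0.22 (SE 0.075, adjusted p = 0.0182), a call lost with DESeq2 (adjusted p = 0.106), without 20 kPa replicate 1 (0.406) and without glass replicate 2 (0.0879).

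On the side of the LXRs and sterol export, 5 of 5 members rose against glass on 1 kPa (background 23.0%) and 3 of 5 on 20 kPa (background 22.3%). Several of these calls were lost in alternative fits, as given for each gene below. Abcg1 (ENSMUSG00000024030.8, chr17:31057675-31117988, plus strand), a sterol exporter and a classic LXR target, moved the most, with 27.2 and 27.8 CPM on 1 kPa, 14.5 and 13.7 CPM on 20 kPa, and 7.26 and 7.54 CPM on glass. Each group lay apart from both others, in the order 1 kPa, 20 kPa, glass from the highest down. The log2 fold change was 1.90 (SE 0.11, adjusted p = 1.05e-14) on 1 kPa, 0.93 (SE 0.12, adjusted p = 1.84e-07) on 20 kPa, and -0.96 (SE 0.10, adjusted p = 1.56e-08) on 20 kPa against 1 kPa.

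Abca1, which loads cholesterol onto lipid-poor apolipoproteins, was at 257 and 247 CPM on 1 kPa, 215 and 205 CPM on 20 kPa, and 199.6 and 211 CPM on glass. The 1 kPa libraries stood above all others and those of 20 kPa and glass overlapped. It rose on 1 kPa, 0.30 (SE 0.058, adjusted p = 9.27e-05), was not called on 20 kPa, 0.032 (SE 0.058, adjusted p = 0.702), and was lower on 20 kPa than on 1 kPa, -0.26 (SE 0.057, adjusted p = 0.00109). The last call was lost without 1 kPa replicate 1 (adjusted p = 0.0573) and without 20 kPa replicate 2 (0.0577). Per length, Abca1 exceeded Abcg1 by 6.64 and 6.27 times on 1 kPa, 10.4 and 10.5 times on 20 kPa, and 19.4 and 19.7 times on glass.

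Nr1h3, LXR alpha, was at 7.31 and 7.68 CPM on 1 kPa, 6.53 and 7.36 CPM on 20 kPa, and 3.7 and 5.57 CPM on glass, and Nr1h2, LXR beta, at 102 and 97 CPM on 1 kPa, 88.8 and 89.3 CPM on 20 kPa, and 85.9 and 84.6 CPM on glass. Nr1h3 stood above glass on both gels but on 80 to 152 counts a library, and the glass pair was wide apart. Its log2 fold change was 0.71 (SE 0.18, adjusted p = 0.00183) on 1 kPa and 0.61 (SE 0.18, adjusted p = 0.00795) on 20 kPa, calls lost without glass replicate 1 (adjusted p = 0.0843 and 0.22), and on 20 kPa also without 20 kPa replicate 2 (0.086) and with DESeq2 (0.0914). Nr1h2 rose on 1 kPa, 0.22 (SE 0.062, adjusted p = 0.0041), a call lost without 1 kPa replicate 1 (0.102), and was not called on 20 kPa, 0.063 (SE 0.062, adjusted p = 0.451).

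Mylip, an LXR target and ubiquitin ligase that marks lipoprotein receptors for degradation, was at 17.4 and 16.5 CPM on 1 kPa, 20.7 and 20.6 CPM on 20 kPa, and 14.1 and 12.1 CPM on glass. Its order differed from that of Abcg1, with 20 kPa above 1 kPa and glass lowest. For Mylip the log2 fold change was 0.37 (SE 0.11, adjusted p = 0.00799) on 1 kPa and 0.65 (SE 0.11, adjusted p = 1.22e-05) on 20 kPa. The 1 kPa call was lost with DESeq2 (adjusted p = 0.0806), without 1 kPa replicate 1 (0.0816) and without glass replicate 2 (0.0886).

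Between the gels, few members differed. On 20 kPa against 1 kPa, 3 members were lower (Insig2, Abca1 and Abcg1; 7.89%, background 9.92%) and 2 higher (Cyp51 and Elovl6; 5.26%, background 8.94%), shares close to those of all tested genes. The other 33 were not called, with a median over all 38 of -0.017, beside 0.004 for all tested genes. Of these, Srebf1 (0.0502), Tm7sf2 (0.0506), Mylip (0.0591) and Nr1h2 (0.0707) had the adjusted p-values nearest to the threshold. The edgeR fit of only the 4 gel libraries called Srebf1 (adjusted p = 0.00687) and Nr1h2 (0.0245) lower on 20 kPa and Tm7sf2 (0.0479) and Mylip (0.032) higher. Srebf1 was also called lower with DESeq2 size factors in edgeR (0.0387), with limma-voom (0.0469) and with a filter of 5 CPM in 2 libraries (0.0291). Without glass replicate 1, Srebf1 (0.00769) and Nr1h2 (0.0315) were called lower on 20 kPa and Tm7sf2 (0.0365) and Mylip (0.03) higher, which makes 5 lower and 4 higher members, the same counts as without glass replicate 2. Msmo1 was called higher without 1 kPa replicate 1 (0.0355), and Tm7sf2 also without 20 kPa replicate 2 (0.0476). Libraries did not overlap in 12 lower and 12 higher members (backgrounds 29.3% and 30.7%). When scaled by total counts in place of TMM factors, calls over all genes went 1945 higher and 1253 lower on 20 kPa, against 1438 higher and 1597 lower with TMM factors, so the split of calls between the gels leans on the scaling. On 20 kPa against glass the share of calls that were higher was 53.2% with TMM factors and 59% with total counts.

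**Figure D5:**
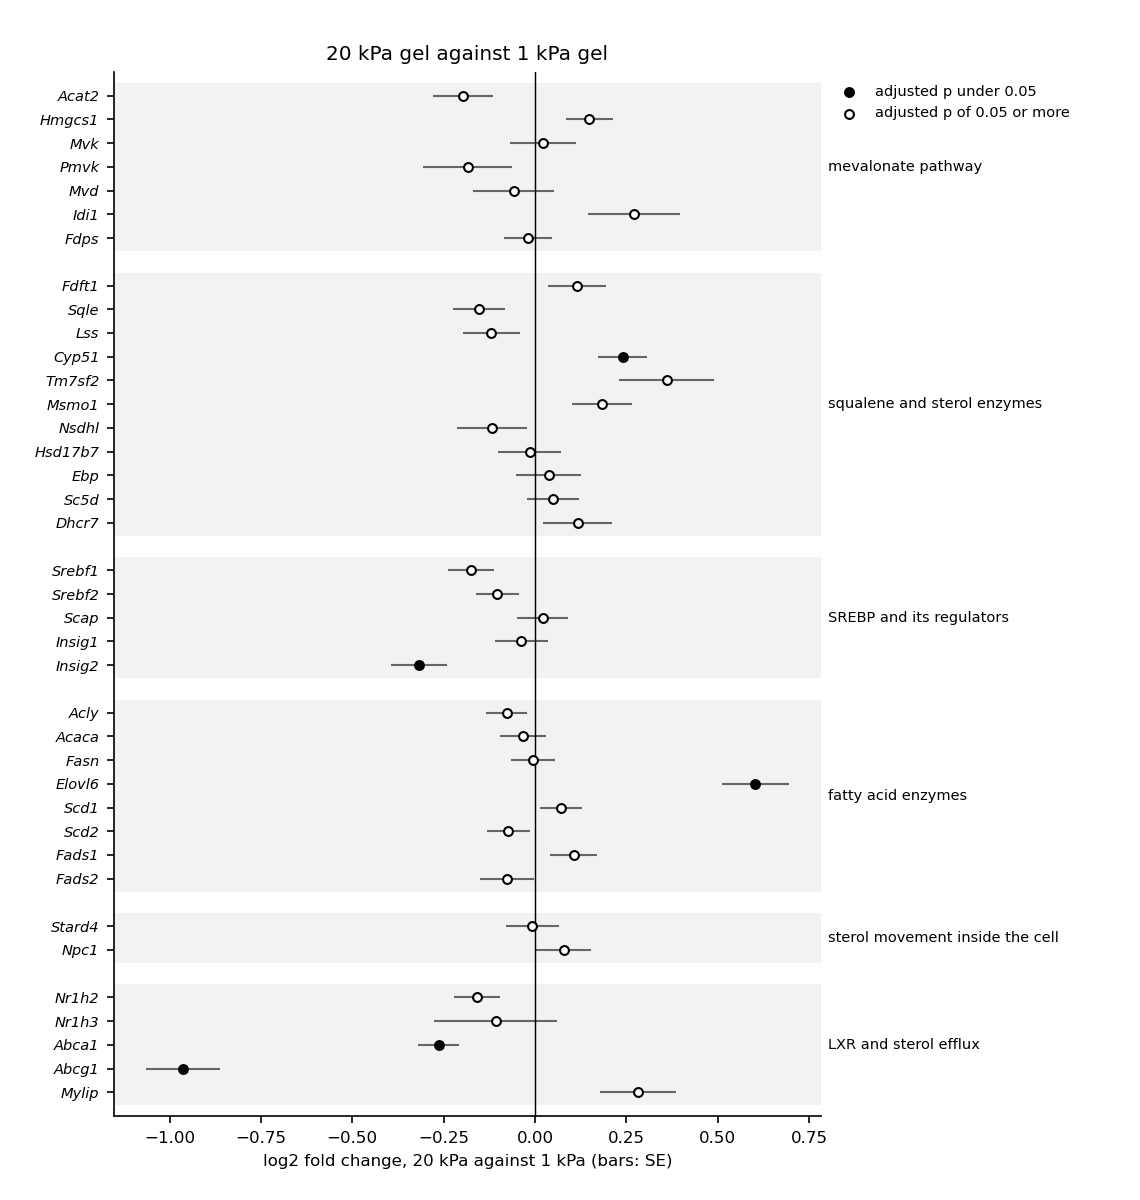
Log2 fold change of each member on 20 kPa against 1 kPa with SE bars, by role; filled points passed the adjusted p of 0.05. Only 5 are filled: Cyp51 and Elovl6 to the right of 0, and Insig2, Abca1 and Abcg1 to the left, of which Abcg1 is at -0.96.

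Other genes of lipid handling, written as 7 lists of 84 genes from general knowledge with earlier results of these data known, were counted in the same way. Of 83 tested, 27 fell (32.5%, background 22.0%) and 27 rose (32.5%, background 23.0%) on 1 kPa, and 28 fell (33.7%, background 19.6%) and 25 rose (30.1%, background 22.3%) on 20 kPa. Their median log2 fold change was -0.017 on 1 kPa and 0.008 on 20 kPa, beside 0.002 and 0.015 over all tested genes. The counts of each list below stand against the same backgrounds. Of the 11 genes of the isoprenoid branches, which use mevalonate for protein prenylation and dolichol, 1 fell and 2 rose on 1 kPa, and 2 fell and 3 rose on 20 kPa. Icmt, which caps prenylated proteins, had 102 and 105 CPM on 1 kPa, 99.7 and 98.4 CPM on 20 kPa, and 84.6 and 83 CPM on glass, a small rise on both gels, with log2 fold changes of 0.31 and 0.24.

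Of the 12 genes of SREBP cleavage and sterol-dependent degradation, 4 fell and none rose in either comparison with glass. Erlin2, a membrane protein of that degradation route, was at 74.7 and 83.7 CPM on 1 kPa, 93 and 93.3 CPM on 20 kPa, and 145 and 132 CPM on glass. It was the most changed of its list on 1 kPa, -0.81 (SE 0.067, adjusted p = 1.73e-11), and also fell on 20 kPa, -0.58 (SE 0.066, adjusted p = 1.75e-08). Rnf145, a ubiquitin ligase that acts on Scap, was at 123 and 119.7 CPM on 1 kPa, 105 and 108 CPM on 20 kPa, and 168 and 155 CPM on glass, with log2 fold changes of -0.42 and -0.60.

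Of 22 other fatty acid and lipid synthesis genes, 12 fell and 8 rose on 1 kPa, and 12 fell and 6 rose on 20 kPa. Dgat2 and Dgat1, which add the last acyl chain of triglyceride, went up on 1 kPa while the fatty acid enzymes fell. Dgat2 was at 51.9 and 50.4 CPM on 1 kPa, 14.1 and 12.3 CPM on 20 kPa, and 12.1 and 9.86 CPM on glass, so that 20 kPa and glass stood close together and 1 kPa far above. Its log2 fold change was 2.21 (SE 0.10, adjusted p = 2.28e-17) on 1 kPa, 0.25 (SE 0.12, adjusted p = 0.0841) on 20 kPa and -1.95 (SE 0.098, adjusted p = 1.3e-15) on 20 kPa against 1 kPa. Dgat1 was at 64.8 and 62.4 CPM on 1 kPa, 45.2 and 45.6 CPM on 20 kPa, and 29.3 and 26.7 CPM on glass, with log2 fold changes of 1.18 on 1 kPa and 0.69 on 20 kPa. Lpin1, of the same list, went the other way, at -0.874 on 1 kPa and -0.425 on 20 kPa. Hacd3 rose on both gels, at 0.821 and 0.935.

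Fatty acid oxidation and PPAR target genes (14) gave 3 falls and 5 rises on 1 kPa and 2 falls and 4 rises on 20 kPa. Angptl4, a secreted inhibitor of lipoprotein lipase, was at 346 and 337 CPM on 1 kPa, 149 and 146 CPM on 20 kPa, and 63.1 and 64.5 CPM on glass. Each group lay apart, from 1 kPa down to glass, with log2 fold changes of 2.42 (SE 0.06, adjusted p = 5.19e-24) on 1 kPa and 1.21 (SE 0.06, adjusted p = 1.87e-16) on 20 kPa. The sum of 6 adipocyte markers moved with these rises, but only 2 of the 6 passed the filter on low counts and Plin1 made up most of it. The markers summed to 15.8 and 14.1 CPM on 1 kPa, 5.36 and 4.36 CPM on 20 kPa, and 0.0925 and 0.522 CPM on glass. Plin1 was at 291 and 231 counts on 1 kPa, 98 and 75 on 20 kPa, and 2 and 5 on glass, with Adipoq at 0 in both glass libraries and Lep at 0 in all 6. Their part in the values above was not tested.

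Oxysterol enzymes make or clear the sterols that bind LXRs. Of these, 3 of the 4 tested rose at least 2-fold on either gel (backgrounds 9.63% on 1 kPa and 8.51% on 20 kPa). Ch25h, which makes an oxysterol, was at 36.7 and 36.5 CPM on 1 kPa, 19.8 and 20 CPM on 20 kPa, and 5.13 and 5.28 CPM on glass, and Cyp7b1, which breaks oxysterols down, at 93 and 87.7 CPM on 1 kPa, 64 and 63.9 CPM on 20 kPa, and 5.18 and 8.82 CPM on glass. For both, 1 kPa was highest and glass lowest, without overlap. The log2 fold change of Ch25h was 2.81 (SE 0.11, adjusted p = 5.99e-19) on 1 kPa and 1.94 (SE 0.12, adjusted p = 2.55e-14) on 20 kPa, and that of Cyp7b1 3.72 (SE 0.12, adjusted p = 1.88e-21) and 3.23 (SE 0.12, adjusted p = 1.11e-19).

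Other LXR partners and targets (7 genes) were split: 3 fell and 2 rose on 1 kPa, and 4 fell and 3 rose on 20 kPa. Smpdl3a, an LXR target that acts on nucleotides, was at 24.1 and 23.9 CPM on 1 kPa, 30.2 and 32.6 CPM on 20 kPa, and 13 and 14.7 CPM on glass, up on both gels by 0.80 and 1.19 on the log2 scale. Pltp, which moves phospholipids between lipoproteins, was at 2.78 and 3.53 CPM on 1 kPa, 4.48 and 4.46 CPM on 20 kPa, and 8.18 and 9.57 CPM on glass, below glass by -1.49 and -0.98. Of the 13 genes for cholesterol uptake, storage and lysosomal release, 4 fell and 7 rose on 1 kPa, and 4 fell and 6 rose on 20 kPa. Scarb1, a lipoprotein receptor, was at 65.1 and 62.9 CPM on 1 kPa, 49.3 and 49.5 CPM on 20 kPa, and 106 and 104 CPM on glass and fell on both gels, at -0.71 and -1.08, whereas Lipa, the lysosomal lipase, was at 96.6 and 99.3 CPM on 1 kPa, 122 and 115 CPM on 20 kPa, and 84 and 81 CPM on glass and rose, at 0.25 and 0.52.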

How the data were processed

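The authors deposited whole-number counts per gene for 6 libraries as 1 table of raw counts. The tools listed per the submitters' processing notes are STAR 2.7.10b, featureCounts, cutadapt and Trim Galore, with build mm10. Settings, annotation and use of strand: not given in the sources used here. Of 57010 identifiers, 91.3% matched GENCODE M21 (GRCm38), which gave symbols, positions and exonic lengths; 99.9% of the matches carried another version number. Counts were tested with edgeR 4.0.16 in R 4.3.3 (glmQLFit and glmQLFTest, TMM factors, filterByExpr by group, all 6 libraries in 1 fit, group as the only term, 3 residual degrees of freedom), with Benjamini-Hochberg adjustment over 16093 genes and a threshold of 0.05. SE is the size of the log2 fold change over the square root of the test's F. CPM use TMM-scaled sizes, and RPKM are CPM per kilobase of exonic length. A floor of 3 counts is 0.139 to 0.174 CPM on the same TMM scale, and it covers counting error only, since amplified reads without molecular identifiers are not independent molecules. Between 2 and 2 libraries an exact permutation test cannot go below a two-sided p of 0.333, so none was run. The fit was tested on simulated data with known changes. These were drawn with the same spread for all genes and groups, so that test does not cover groups or genes that differ in spread. Members and lists were chosen with earlier results of these data known. All 38 members may be named; of each other lipid list, up to 4 genes past the threshold with the smallest p and at least 1 CPM may be, and marker genes for a level. Shared sequence was counted as 50-base stretches of each member's transcripts found in another gene's transcripts. Alternatives were DESeq2 1.42.0, limma-voom (limma 3.58.1), other scalings and filters, fits of only the 4 libraries compared, a replicate block and leaving out each library.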

Additional observations from a re-analysis of the deposited data

How the results depend on the processing

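Over 14 planned settings, 1596 values of members were recomputed: 1554 kept their call, 18 lost it, 24 gained one, and no called value changed sign. The counts of members lower than glass did not move past 1.5 times in any setting. What moved were counts between the gels, the number of members higher on either gel than on glass, and the members' median on 20 kPa against glass. With total counts, 5 members were higher on 20 kPa than on 1 kPa; with a filter of 5 CPM in 2 libraries, 5 were lower; in the fit of only the 4 gel libraries, 5 were lower and 4 higher. DESeq2 called 2 members higher on 20 kPa than on glass, 1816 genes of all between the gels (3035 with edgeR) and 10 genes of the lipid lists lower on 20 kPa than on 1 kPa. The cause was not tested.

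Without 1 library at a time, members lower on 1 kPa than on glass numbered 29 to 30 and higher 3 to 5; on 20 kPa, 30 to 31 and 3 to 4, with a median of -0.999 to -0.91. Between the gels all genes called ran from 1680 to 3824, members lower from 2 to 5 and higher from 1 to 4, and lipid-list genes lower from 10 to 19 and higher from 5 to 13. A lone library is assumed to vary like the other groups.

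Same-numbered libraries did not deviate together (correlations of -0.032 for 1 kPa with 20 kPa, -0.203 for 1 kPa with glass and 0.026 for 20 kPa with glass over 10050 genes). With 2 libraries a group, technical differences could hide a shared origin, so these values cannot decide whether the replicate numbers mark a pairing. A replicate block gave 7032, 6526 and 2862 genes called for 1 kPa against glass, 20 kPa against glass and 20 kPa against 1 kPa, with 29 members lower in the first. With the numbers crossed between 1 kPa and glass, chosen after seeing the data, 7511 genes were called, against 6639 with the same numbers. Nr1h3, whose calls were lost without glass replicate 1, had 80 to 152 counts per library; the part of depth in this was not tested.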
